A study of Sus scrofa with 8 samples.

Results

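IL-6 family cytokines and the receptors that carry gp130 were followed in pig skin after intradermal injection of IL-15. The group holds 10 of the 31907 genes in the series table. They are 4 ligands (IL6, LIF, IL11 and OSM), the binding chains IL6R and IL11RA, the signalling chains IL6ST, LIFR and OSMR, and the transcription factor STAT3. The genes were taken by symbol, 1 Ensembl gene for each symbol. The table itself named 9 of them, and the row of IL11RA, which had no symbol, was named through its Ensembl ID. The group was chosen by the levels of these genes in injected and control biopsies, with that comparison already known, so the comparison is given as a description.

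Skin of Yorkshire swine, labelled wild type, was sampled from 2 animals, called pig 14 and pig 13. Injected biopsies, 4 in all, were taken 3 h after IL-15 (200 ng, in 100 µl saline) entered the dermis of sites 12d and 12c of pig 14 and sites 12e and 12c of pig 13. The 4 control biopsies, which had no injection, came from sites 7e and 6b in pig 14 and from sites 7b and 6b in pig 13. Per the design text, genes strongly induced by IL-15 were sought as readouts for ATI-1777, a topical inhibitor of the kinases JAK1 and JAK3. IL-15 signals through these kinases. None of these 8 biopsies is labelled as given saline alone, and injected and control sites carried different numbers, so the cytokine, the needle, the fluid and the position on the body cannot be told apart. Since 2 animals gave all biopsies, every p-value below measures the spread between skin sites, not between pigs.

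Each biopsy had between 28471089 and 36070107 counts. All 5 basal keratinocyte markers and all 7 fibroblast markers looked for were present, and the basal keratinocyte markers summed to 11355 to 15361 CPM (counts scaled to library size) in injected biopsies and 6602 to 20783 CPM in controls. The control biopsy from site 7b of pig 13 stood apart. Its 6 neutrophil markers summed to 409 CPM, against 55.0 to 93.4 CPM in the other controls and 44.6 to 144 CPM in injected biopsies. Most of that sum came from S100A8, S100A9 and S100A12, at 93.9, 114.5 and 170 CPM. CXCR2, CSF3R and MMP25 reached at most 17.5, 8.37 and 7.67 CPM in any control. Its differentiated keratinocyte markers summed to 19390 CPM, against 6208 to 9405 CPM in the other controls. Its fibroblast markers summed to 19277 CPM, against 77042 to 192677 CPM in the other controls. The main results that rest on this biopsy are given with and without it, and its part in them through its cell makeup was not tested.

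Cytokines of the IL-6 family share gp130, the product of IL6ST, as a signalling chain. IL-6 and IL-11 first bind their own chains, encoded by IL6R and IL11RA, and the complex then pairs gp130 molecules. LIF signals through gp130 joined to the LIF receptor, and oncostatin M, in humans, through gp130 joined to either the LIF receptor or the oncostatin M receptor. JAK kinases bound to these chains phosphorylate STAT3, which induces SOCS3, an inhibitor that binds gp130. In skin, IL-6 is made by keratinocytes, fibroblasts, endothelial cells and leukocytes during injury and inflammation, and oncostatin M acts on keratinocytes.

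The 10 genes lie on 7 chromosomes of Sscrofa11.1, all annotated as protein coding, and reads were counted over their annotated exons. IL6 (ENSSSCG00000020970) lies on chromosome 9 from 91506340 to 91511263, inside the span of RAPGEF5 on the other strand, with no shared exonic base. LIF (ENSSSCG00000040961, chromosome 14, 47221560 to 47238749) and OSM (ENSSSCG00000009997, chromosome 14, 47243743 to 47266595) are neighbours on the same strand, 4994 bases apart. LIFR (ENSSSCG00000016850, chromosome 16, 23631195 to 24042240) and OSMR (ENSSSCG00000016851, chromosome 16, 24041567 to 24102179) point away from each other, and their spans overlap by 674 bases without sharing exonic bases. IL6ST (ENSSSCG00000016916) lies on the same chromosome from 35101304 to 35211982. The others are IL11 (ENSSSCG00000040725, chromosome 6, 59541210 to 59544896), IL6R (ENSSSCG00000027628, chromosome 4, 95322426 to 95381282), IL11RA (ENSSSCG00000010968, chromosome 10, 32136086 to 32146138) and STAT3 (ENSSSCG00000017403, chromosome 12, 20407233 to 20472993).

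The gene models of OSM and IL11RA reach over other genes. The OSM model has 15 exonic blocks, and 8 of them overlap exons of CASTOR1, an arginine sensor on the same strand, over 1263 bases or 41.7% of the exonic length of OSM. RefSeq places OSM of the same assembly from 47242767 to 47246836, which leaves 10 of the 15 blocks and 72.9% of the exonic length outside it. The IL11RA model covers the whole 397 exonic bases of CCL27, a keratinocyte chemokine on the other strand, and 59.4% of its exonic length lies outside the RefSeq span of IL11RA. CCL27 was listed at 0 counts in all 8 biopsies. The sources used here state neither a strand setting of the counting nor the treatment of reads on shared exons, and the values of OSM and IL11RA are therefore uncertain.

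Among the ligands IL6, the cytokine that names the family, differed most between the groups. It was at 5.29 and 4.30 CPM in the injected biopsies 12d and 12c of pig 14 and at 14.6 and 7.91 CPM in 12e and 12c of pig 13, against 0.212 and 0.573 CPM in the controls 7e and 6b of pig 14 and 3.22 and 0.423 CPM in 7b and 6b of pig 13. CPM were scaled for library composition by the TMM method. Every injected biopsy lay above every control biopsy, and the highest control was 7b, the biopsy that stood apart. From 117 to 443 counts lay behind the injected values and from 6 to 118 behind the control values. The means were 8.02 ± 4.62 CPM in injected biopsies and 1.11 ± 1.42 CPM in controls (SD, n = 4 each). The 5 found markers of differentiated keratinocytes summed to 3785 to 9793 CPM in injected biopsies, against 6208 to 19390 CPM in controls, and their part in the IL6 difference was not tested. The mean in injected biopsies was 12.2 times that of controls in pig 14 and 6.16 times that of controls in pig 13. The control mean of pig 13 rests largely on 7b, at 3.22 CPM against 0.423 CPM at 6b. Which pig had the larger ratio therefore depends on 7b. In whole biopsies, more cells that express a gene and more RNA per cell cannot be told apart.

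LIF, a cytokine that acts through the LIF receptor, overlapped between the groups. It was at 6.75 and 5.74 CPM in injected biopsies of pig 14 and at 5.95 and 3.85 CPM in those of pig 13, against 4.38 and 7.56 CPM in controls of pig 14 and 3.82 and 3.75 CPM in controls of pig 13. The highest of the 8 values was that of the pig 14 control from site 6b. The means were 5.57 ± 1.23 CPM in injected biopsies and 4.88 ± 1.81 CPM in controls (SD, n = 4 each).

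IL11, a cytokine that fibroblasts and epithelial cells make, had the fewest counts. There were 2, 8, 11 and 10 counts in injected biopsies and 13, 11, 24 and 5 counts in controls. Its level was 0.069 to 0.361 CPM in injected biopsies and 0.151 to 0.656 CPM in controls, and the groups overlapped. Its lowest value was at the injected site 12d of pig 14 and its highest at the control site 7b of pig 13.

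OSM, a product of leukocytes, was at 1.70 and 1.58 CPM in injected biopsies of pig 14 and at 1.97 and 1.49 CPM in those of pig 13, against 1.41 and 1.37 CPM in controls of pig 14 and 1.78 and 1.72 CPM in controls of pig 13. Its values spanned 1.37 to 1.97 CPM over all 8 biopsies and the groups overlapped. CASTOR1, whose exons it shares, averaged 6.34 ± 0.80 CPM in injected biopsies and 6.33 ± 1.16 CPM in controls (SD, n = 4 each).

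**Figure D1:**
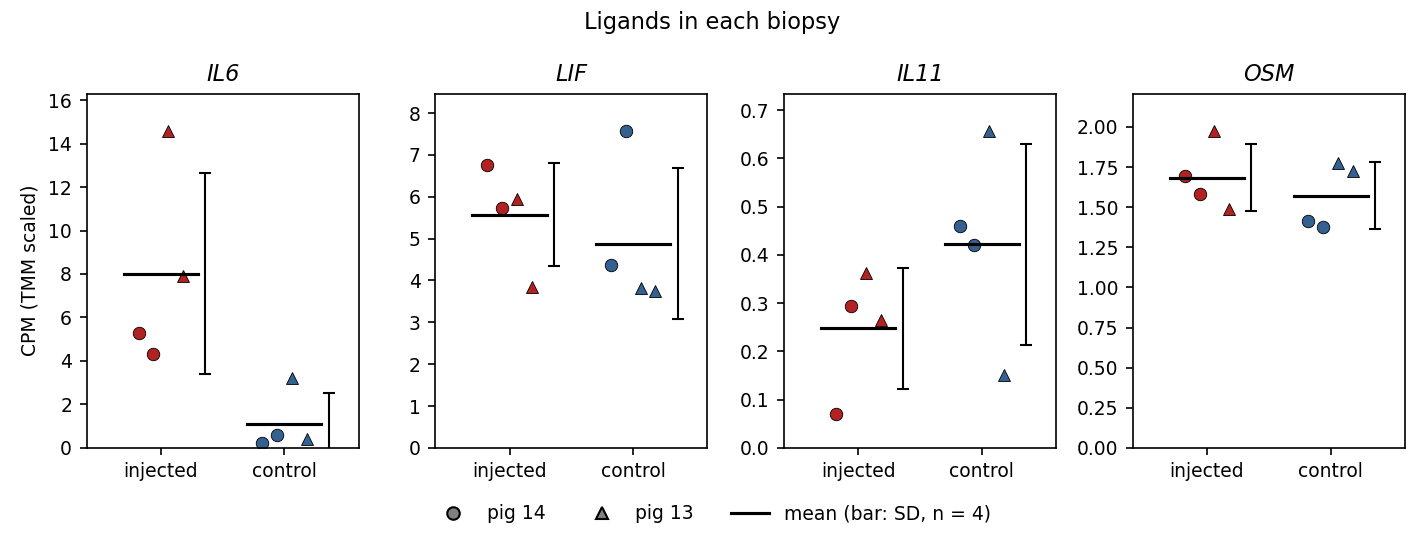
CPM of the 4 ligand genes in each biopsy, injected and control, with circles for pig 14 and triangles for pig 13, the group mean as a line and the SD (n = 4) as a bar, drawn only above 0. Injected biopsies of IL6 lie between 4.30 and 14.6 CPM, above all controls, while the groups of LIF, IL11 and OSM overlap.

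Of the receptor chains, OSMR, the chain through which oncostatin M acts on keratinocytes, had the largest difference. It was at 53.6 and 52.8 CPM in injected biopsies of pig 14 and at 63.4 and 45.7 CPM in those of pig 13, against 37.8 and 36.7 CPM in controls of pig 14 and 55.1 and 23.8 CPM in controls of pig 13. Both injected biopsies of pig 14 lay above both of its controls, and in pig 13 the control 7b lay between the injected biopsies. The means were 53.9 ± 7.27 CPM in injected biopsies and 38.4 ± 12.9 CPM in controls (SD, n = 4 each).

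IL6ST, which encodes gp130, was lower at both injected sites of pig 14 and higher at both injected sites of pig 13 than at the control sites of the same animal. How many of all tested genes had such a pattern was not counted. In pig 14 it was at 200.0 and 192 CPM at injected sites, against 232 and 232 CPM at control sites. In pig 13 it was at 180 and 207 CPM at injected sites, against 154 and 141 CPM at control sites. Over both pigs the injected biopsies averaged 195 ± 11.4 CPM and the controls 190.0 ± 49.3 CPM (SD, n = 4 each), so the injected biopsies lay closer together than the controls.

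LIFR, the LIF receptor chain, differed between the animals. It was at 139 and 116 CPM at injected sites and 133 and 115 CPM at control sites of pig 14, and at 95.9 and 88.1 CPM at injected sites and 74.2 and 97.8 CPM at control sites of pig 13. All 4 biopsies of pig 14 lay above all 4 of pig 13. Of all tested genes, 18.6% had no overlap between the pigs in either direction.

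The binding chains varied least. IL6R, the IL-6 binding chain, was at 62.8 to 75.6 CPM in injected biopsies and 60.5 to 68.6 CPM in controls, with a coefficient of variation of 6.64% over all 8. IL11RA, the IL-11 binding chain, was at 48.5 to 52.0 CPM in injected biopsies and 47.9 to 51.8 CPM in controls, with a coefficient of variation of 3.31%. IL6 itself had a coefficient of variation of 107%.

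STAT3, the transcription factor downstream of gp130, was at 217 and 226 CPM in injected biopsies of pig 14 and at 214 and 206 CPM in those of pig 13, against 195 and 191 CPM in controls of pig 14 and 292 and 175 CPM in controls of pig 13. All injected biopsies lay above 3 of the 4 controls, and the control 7b lay above all injected biopsies. The means were 216 ± 8.22 CPM in injected biopsies and 213 ± 53.2 CPM in controls (SD, n = 4 each).

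**Figure D2:**
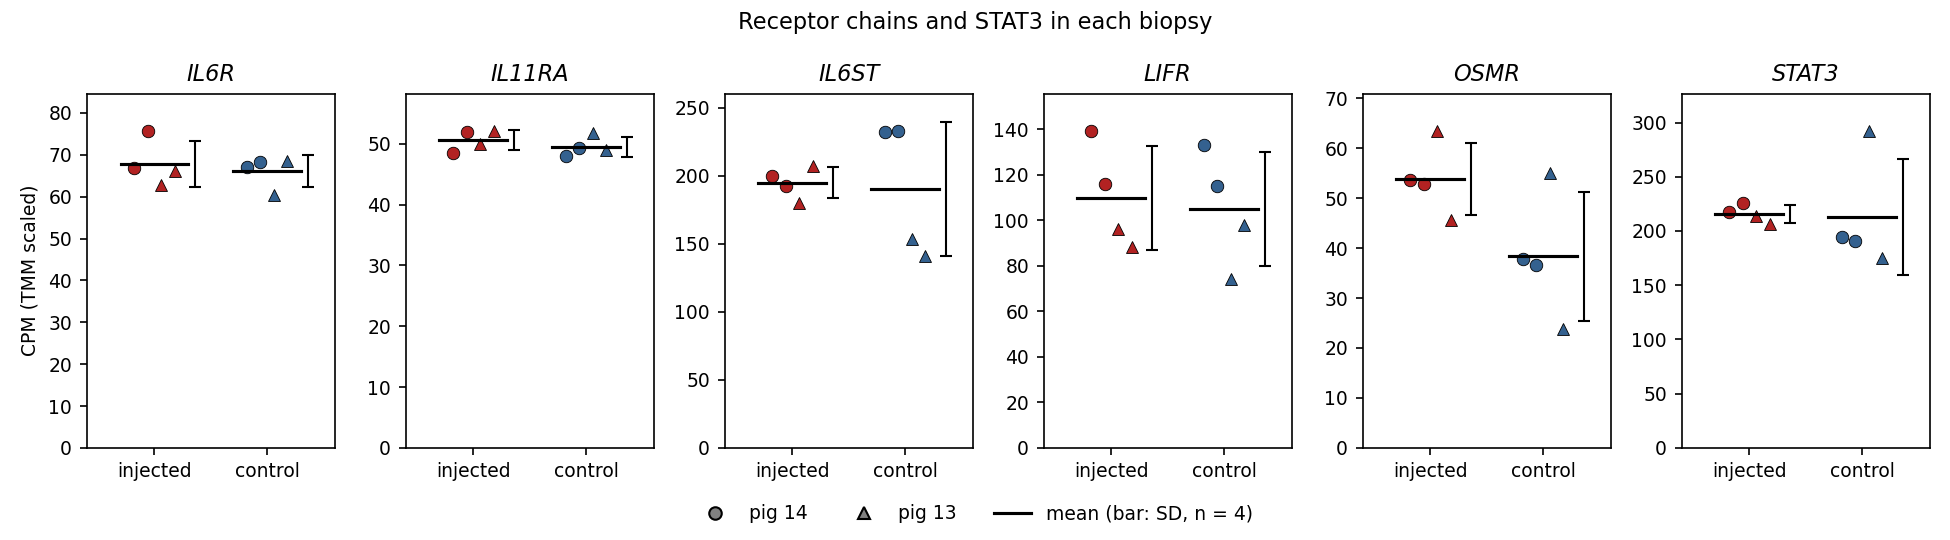
CPM of the 5 receptor genes and STAT3 in each biopsy, injected and control, with circles for pig 14 and triangles for pig 13, the group mean as a line and the SD (n = 4) as a bar. Groups overlap in all 6 panels. In LIFR the pigs do not overlap, which held for 18.6% of all tested genes.

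In a model with treatment and pig, fitted over 19862 tested genes, IL6 had a log2 fold change of injected over control biopsies of 3.00 ± 0.61 (SE), a 7.97-fold difference. It ranked 44 among all tested genes by p and was not called by edgeR's quasi-likelihood test after Benjamini-Hochberg adjustment over all genes (adjusted p = 0.681). A gene was called at an adjusted p under 0.05. OSMR had 0.49 ± 0.23 (95% confidence interval -0.05 to 1.03) and LIF 0.22 ± 0.22 (95% confidence interval -0.26 to 0.69). IL11 was the only member below 0, at -0.78 ± 0.56 (95% confidence interval -2.03 to 0.47). The values of OSM, IL6ST, LIFR, IL6R, IL11RA and STAT3 lay between 0.026 and 0.10. The intervals were narrowest for IL11RA, from -0.14 to 0.21, and IL6R, from -0.15 to 0.22.

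None of the 10 members was called in this comparison by edgeR, and 0.0352% of all tested genes were called higher. At an unadjusted p under 0.05, edgeR had 1 member higher, IL6, and none lower, where 2.39% of all tested genes were higher. DESeq2 called IL6 (log2 fold change 3.10 ± 0.71, adjusted p = 0.00674 by DESeq2) and no other member, and called 0.257% of genes higher. It gave IL11 no adjusted p. OSMR had an unadjusted p of 0.0337 and an adjusted p of 0.963 by DESeq2. IL6 was also the only member with every injected biopsy above every control, which held for 1.15% of all tested genes. The median log2 fold change was 0.071 over the members and -0.0078 over all tested genes. Because the group was chosen with this comparison known, these counts describe it and are no test of it.

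The pig 13 control from site 7b moved the size of the IL6 difference. Without it IL6 had a log2 fold change of 4.09 ± 0.40, a 17.0-fold difference, and was called by edgeR (adjusted p = 0.00588), where 0.094% of all genes were called higher. OSMR had 0.78 ± 0.16 (95% confidence interval 0.41 to 1.14, adjusted p = 0.309 by edgeR) and STAT3 0.23 ± 0.09 (95% confidence interval 0.03 to 0.43, adjusted p = 0.82 by edgeR). These values are conditional on the removal of a biopsy in which these genes were high. In pig 14 alone, which did not contribute that biopsy, IL6 had 3.62 ± 0.44 (adjusted p = 0.05003 by edgeR), OSMR 0.52 ± 0.11 (adjusted p = 0.327) and STAT3 0.21 ± 0.11 (adjusted p = 0.606). In pig 13 alone, with it, IL6 had 2.61 ± 0.97 (adjusted p = 0.806 by edgeR), OSMR 0.47 ± 0.44 (adjusted p = 0.976) and STAT3 -0.14 ± 0.24 (adjusted p = 0.997).

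**Figure D3:**
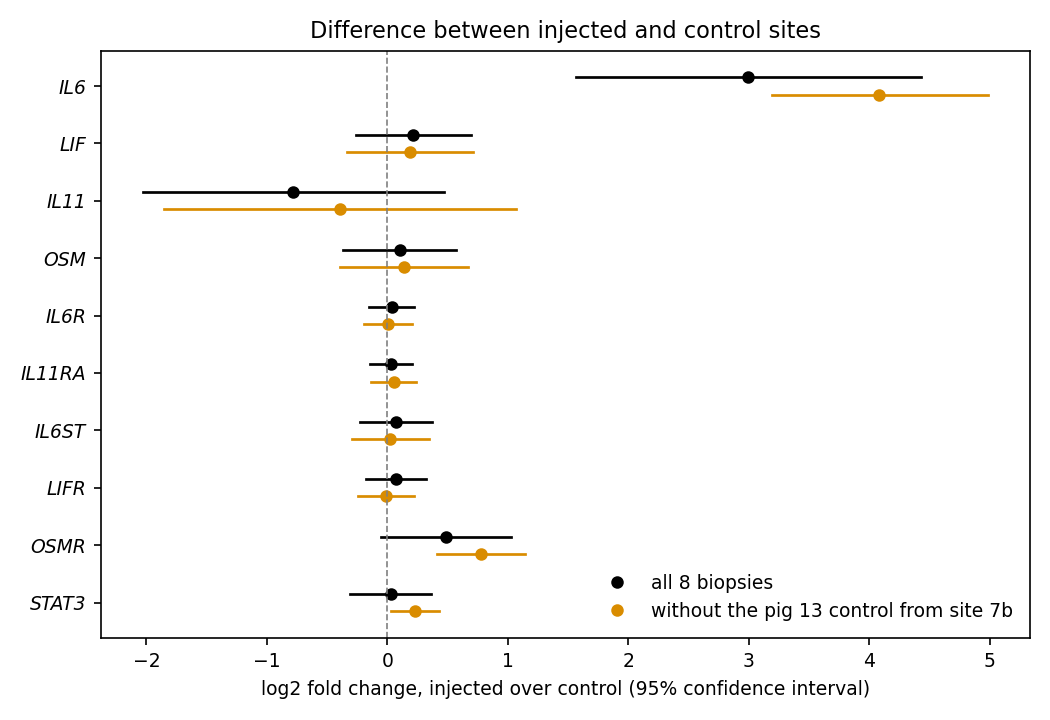
Log2 fold change of injected over control biopsies for the 10 members with its 95% confidence interval, from all 8 biopsies (black) and without the pig 13 control from site 7b (orange). IL6 is at 3.00 and 4.09, OSMR at 0.49 and 0.78, and with all biopsies the intervals of IL6 and IL11 are the widest.

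Levels of different genes were compared per length, as RPKM, that is CPM divided by the exonic length of the counted model in kilobases. STAT3 averaged 26.5 ± 1.01 RPKM in injected biopsies and 26.1 ± 6.52 RPKM in controls, and IL6ST 25.5 ± 1.49 and 24.8 ± 6.44 RPKM (SD, n = 4 each). These levels lay above those of 92.9% and 92.5% of all tested genes. STAT3 and IL6ST did not differ beyond their spread, since each was the higher in 2 of the 4 controls. Of the exonic length, 24.3% in STAT3 and 6.81% in IL6ST lies outside the RefSeq span, so these levels depend on the counted models.

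IL11RA averaged 10.4 ± 0.35 RPKM in injected biopsies and 10.2 ± 0.34 RPKM in controls, below IL6ST in all 8. IL6R, LIFR and OSMR averaged 8.82, 8.88 and 9.78 RPKM in injected biopsies and 8.60, 8.50 and 6.97 RPKM in controls. The ranges of these 3 chains overlapped in both groups. Over the counted models, IL6ST had the highest RPKM of the receptor chains. It was at 2.55 to 3.14 times the RPKM of IL6R in injected and 2.07 to 3.48 times in control biopsies. Its rank over IL11RA is uncertain, since 59.4% of the exonic length of the IL11RA model lies outside the RefSeq span. The model of LIFR could not be set against a RefSeq span. Its exonic blocks 9 to 14 are 71, 163, 147, 170, 130 and 255 bases long. Blocks 15 to 20 are 71, 163, 146, 170, 130 and 255 bases long. Why the lengths recur was not tested, so the RPKM of LIFR is uncertain too.

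LIF, OSM and IL11 lay below every receptor chain in all 8 biopsies. LIF was at 0.852 to 1.49 RPKM in injected biopsies and 0.830 to 1.67 RPKM in controls, and OSM at 0.491 to 0.652 and 0.454 to 0.587 RPKM. IL11 was at 0.058 to 0.301 RPKM in injected biopsies and 0.126 to 0.546 RPKM in controls. IL6 was at 3.42 to 11.6 RPKM in injected biopsies and 0.168 to 2.56 RPKM in controls.

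By RPKM over the counted models, IL6 was the highest of the 4 ligands in all injected biopsies and in the control 7b, and LIF in the other 3 controls. The order of LIF and OSM and the shares below depend on the OSM model. Of its exonic length, 72.9% lies outside the RefSeq span, so they are uncertain. IL6 made up 62.6% to 83.6% of the summed RPKM of the ligands in injected biopsies. In controls it made up 56.4% at site 7b of pig 13 and 8.46% to 18.1% at the other 3 sites. The highest IL6 level, 11.6 RPKM at site 12e of pig 13, reached that of OSMR in the same biopsy, 11.5 RPKM.

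**Figure D4:**
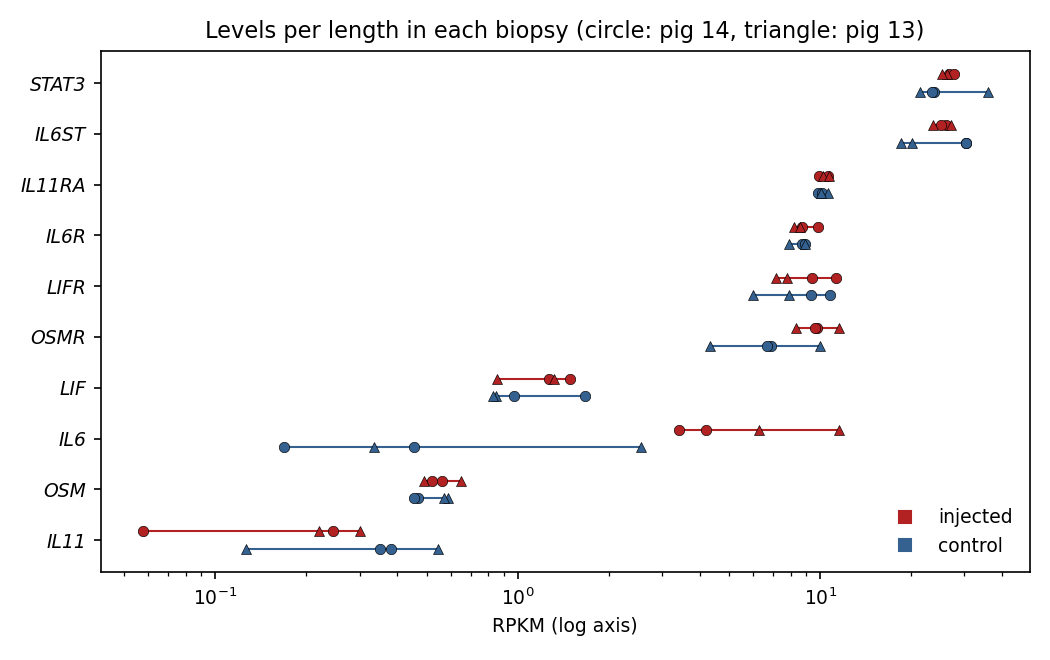
RPKM of the 10 members in each biopsy on a log axis, ordered by the mean in controls, with injected above control for each gene and lines from the lowest to the highest value. STAT3 and IL6ST lie highest, the 4 other receptor chains between 4.32 and 11.5 RPKM, and IL6 spans 0.168 to 11.6 RPKM.

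The choice of members did not use the difference between the animals. In the same model edgeR called LIFR higher in pig 14 than in pig 13, with a log2 fold change of 0.50 ± 0.11 (SE, adjusted p = 0.0199 by edgeR). LIFR was the only 1 of the 10 members called, while 10.7% of all tested genes were called between the pigs, so the share is near the background. All 4 biopsies of pig 14 lay above all of pig 13 for LIFR, and 18.6% of all tested genes had no overlap between the pigs in either direction. Markers of T and NK cells summed to 25.8 to 53.9 CPM in pig 14 and 10.9 to 18.3 CPM in pig 13. Fibroblast markers summed to 136661 to 192677 CPM in pig 14 and 19277 to 109249 CPM in pig 13, and the 4 found mast cell markers to 81.4 to 121 CPM in pig 14 and 61.2 to 77.4 CPM in pig 13. These 3 of the 11 marker lists did not overlap between the pigs, and their part in the LIFR difference was not tested. The call was lost without any of 4 single biopsies, the injected ones from 12d of pig 14 and from 12e and 12c of pig 13 and the control 7e of pig 14, with an adjusted p of 0.052 to 0.081 by edgeR. Leaving out the other 4 kept it. The log2 fold change of pig 14 over pig 13 was -1.59 ± 0.60 for IL6 (adjusted p = 0.14 by edgeR), 0.34 ± 0.13 for IL6ST (adjusted p = 0.139) and 0.50 ± 0.22 for LIF (adjusted p = 0.167). These 3 did not pass with all biopsies, and IL6 passed without the pig 13 control from site 6b (-1.79 ± 0.43, adjusted p = 0.0394 by edgeR).

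An interaction term tested whether the injected sites departed from the controls by a different amount in each pig. None of the 10 members was called by edgeR, which called 0% of genes. DESeq2, which called 0.512% of genes, called none of the 9 members to which it gave an adjusted p. It gave none to IL11. At an unadjusted p under 0.05 edgeR had 1 member, IL6ST, and 8.22% of all tested genes. Its log2 fold change in pig 14 minus that in pig 13 was -0.64 ± 0.18 (95% confidence interval -1.04 to -0.23, adjusted p = 0.477 by edgeR). Basal keratinocyte markers summed to 11355 and 13084 CPM at injected and 6602 and 7126 CPM at control sites of pig 14, and to 15361 and 14669 CPM at injected and 20783 and 12413 CPM at control sites of pig 13, and their part in the IL6ST difference was not tested. The term was 1.01 ± 1.3 for IL6 and 0.049 ± 0.52 for OSMR, with 95% confidence intervals of -2.17 to 4.19 and -1.22 to 1.32.

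Other genes of the pathway were described in 7 lists, chosen with earlier results of these data known. EdgeR called no gene of any list over all genes, against 0.0352% of all tested genes called higher. Among 6 other ligands and partners that act through gp130 or its relatives, none had an unadjusted p under 0.05 by edgeR or DESeq2. IL27 had 0.44 ± 0.54 and CTF1, a cytokine of heart and nerve, 0.16 ± 0.23. Among 3 further receptor chains, IL27RA had 0.18 ± 0.14, CNTFR -0.14 ± 0.21 and IL31RA, the receptor chain of the itch cytokine IL-31, -0.15 ± 0.30. Of 8 kinases and adaptors of the pathway none had an unadjusted p under 0.05 by either tool, and the 3 with the smallest p were SOS1, TYK2 and JAK2, at -0.15 ± 0.10, -0.077 ± 0.10 and -0.071 ± 0.11.

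Among 8 inhibitors and sheddases, SOCS3 differed most. Injected biopsies had 36.8 to 47.2 CPM of SOCS3 and controls 3.6 to 29.0 CPM, where 7b was the highest control, and every injected biopsy lay above every control. Its log2 fold change was 1.86 ± 0.63 (adjusted p = 0.964 by edgeR and 0.378 by DESeq2), and 2.83 ± 0.20 without 7b (adjusted p = 0.001 by edgeR). The value without 7b is conditional on the removal of its highest control. ADAM10, a protease that releases IL-6 receptor from cells, had -0.13 ± 0.10, and PIAS3, an inhibitor of STAT3, -0.095 ± 0.11. The list median was -0.024.

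Of 19 tested STAT3 target genes, 6 were higher and none lower at an unadjusted p under 0.05 by edgeR, against 2.39% of all tested genes higher. By DESeq2 7 of the 19 were higher, against 2.49% of all tested genes. The list includes BCL3, FOS and SBNO2, chosen after their values were seen, so these counts describe the list and are no test of it. The median log2 fold change of the 19 was 0.20, against -0.0078 over all genes. ZFP36, which binds and destabilises cytokine mRNA, had 0.56 ± 0.13, the growth regulator MYC 0.42 ± 0.11 and the AP-1 subunit JUNB 0.47 ± 0.13 (adjusted p of 0.667 to 0.822 by edgeR). IL4R, a receptor chain of IL-4, had 0.27 ± 0.31, from 34.0 to 48.4 CPM in injected biopsies and 21.2 to 57.9 CPM in controls. Without 7b edgeR called 6 of the 19 higher, against 0.094% of all genes. They were SOCS3, BCL3, FOS, IL4R, SBNO2 and ZFP36, of which BCL3, FOS and SBNO2 were chosen after their values were seen. All 6 had their highest control values in 7b, and their log2 fold changes were larger without it. The calls without 7b are thus conditional on its removal and are no test of the list. MCL1 was listed at 0 counts in all biopsies and was not tested.

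Of 13 genes that govern IL6 transcription or mRNA, 7 were higher and none lower at an unadjusted p under 0.05 by both tools, where 2.39% of all tested genes were higher by edgeR and 2.49% by DESeq2. Their median log2 fold change was 0.31. Besides ZFP36 these included NFKBIA, the inhibitor of NF-kB, at 0.53 ± 0.13, and the NF-kB subunit RELB at 0.60 ± 0.16 (adjusted p = 0.746 and 0.772 by edgeR). Without 7b the list median was 0.51, and edgeR called 2 of the 13 higher, ZFP36 and ZC3H12A, against 0.094% of all genes. The highest control values of both genes were in 7b, so these calls are conditional on its removal and no test of the list. ZC3H12A, a nuclease that cleaves IL6 mRNA, was chosen after its values were seen. It was at 22.2 to 28.4 CPM in injected biopsies and reached 50.0 CPM in 7b. With all biopsies its log2 fold change was 0.29 ± 0.47. CEBPB, CEBPD and ZFP36 are also on the list of STAT3 targets, and SOCS3 is on the lists of inhibitors and of STAT3 targets. The counts of these lists are thus not independent. These lists were chosen with earlier results of these data known, so the counts are no test of them.

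Among 5 tested cytokines that induce IL6, TNF was at 2.07 to 6.40 CPM in injected biopsies and 0.907 to 2.33 CPM in controls (log2 fold change 1.41 ± 0.24, adjusted p = 0.20 by edgeR and 0.000151 by DESeq2). IL1B had 1.26 ± 0.62 and IL1A -0.56 ± 0.30 (adjusted p = 0.964 by edgeR for both). Without 7b IL1B had 2.36 ± 0.61 (adjusted p = 0.541 by edgeR). IL1B was at 0.662 to 1.84 CPM in injected biopsies and 0.060 to 1.23 CPM in controls.

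The genes whose pattern was most like that of IL6 were taken by the Pearson correlation of log2 CPM over the 8 biopsies, among 13587 genes with a symbol and a mean of at least 1 CPM. The biopsies share 2 animals and 2 treatments, so this is a description. The closest was MAP3K8, a kinase that activates ERK downstream of Toll-like and TNF receptors, with r = 0.98, at 37.8 to 46.9 CPM in injected biopsies and 27.7 to 39.4 CPM in controls. RAD54L2, a helicase-like protein, and RND1, a GTPase, had r = 0.97 each. RNF122, a ubiquitin ligase, and ZFP36 had r = 0.96 each. All 5 had their highest control value at site 7b of pig 13, and without that biopsy r was 0.97 to 0.99.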

How the data were processed

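RNA of 8 skin biopsies was sequenced, 4 injected and 4 control, from 2 pigs. Per the labels' protocols, total RNA came from whole biopsies (RNeasy lipid tissue kit), and RiboZero Gold is named for the libraries. Named in the submitters' processing notes are the build Sscrofa11.1, STAR 2.5.1a, featureCounts 1.4.6-p5 and bcl2fastq. The deposited values, per the file headers, are raw counts for each Ensembl gene, in a series table and in a file for each biopsy. Those files also hold the authors' CPM and RPKM, which were not tested. For the pig 13 control from site 7b the single file holds only 607 complete genes, and the series table was used. RefSeq spans come from a RefSeq gene table of the same assembly.

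Genes were filtered with filterByExpr of edgeR 4.0.16 (R 4.3.3, minimum count 10) and scaled by TMM, and CPM and RPKM printed here use that scaling. The main test was edgeR's robust quasi-likelihood F test with treatment and pig in the model, adjusted by Benjamini-Hochberg over 19862 genes, and DESeq2 1.42.0 was an alternative. The animal, named in the labels, was the block. As a check of this pairing, departures from the group means correlated from 0.25 to 0.54 between injected and control biopsies within a pig and from -0.49 to -0.28 across pigs. Each group was centred on its own mean, so positive values within a pig entail negative ones across pigs. The ranges are therefore not independent. The correlation with IL6 used log2(CPM + 0.5). The test of injected against control was tried on simulated counts that held no pig effect. That trial cannot check the block, the comparison of the pigs or the interaction.

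Named were all 10 members, SOCS3, IL4R, the 3 genes of each pathway list with the smallest p, and the 5 genes most like IL6. Of these, 1 gene is not reported here. The members and lists were chosen with earlier results of these data known. CNTF, SERPINA3 and LRG1 were not found by symbol, and IL17A and MCL1 did not pass the filter.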

Additional observations from a re-analysis of the deposited data

Results flagged for a closer look

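In 20 groups of 4 biopsies, of the 10 members in injected and in control biopsies, 3 had a value whose gap to its nearest neighbour took up an unusually large share of the group's range, and chance flags about 1 in 20 such groups. IL6 was at 3.22 CPM in the pig 13 control from site 7b, against 0.212 to 0.573 CPM in the other controls. STAT3 was at 292 CPM in the same biopsy, against 175 to 195 CPM in the other controls. LIF was at 7.56 CPM in the pig 14 control from site 6b, against 3.75 to 4.38 CPM in the other controls.

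IL6ST went in opposite directions in the 2 animals, with a ratio of injected to control means of 0.844 in pig 14 and 1.31 in pig 13, and no overlap between injected and control sites of either pig. This rests on 2 sites against 2 in each pig, and the share of all tested genes with such a pattern was not counted. The test of that difference did not pass over all genes (interaction -0.64 ± 0.18, adjusted p = 0.477 by edgeR). At an unadjusted p under 0.05 by edgeR, 8.22% of all tested genes had an interaction.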

How the results depend on the processing

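The log2 fold changes of IL6 and OSMR between injected and control sites stayed above 0 in every alternative, from 2.61 to 4.09 for IL6 and from 0.29 to 0.78 for OSMR. IL6 had an adjusted p of 0.00588 to 1.0 by edgeR over the alternatives. Without a replicate block for the pig it had 2.82 (adjusted p = 1.0 by edgeR), and edgeR called 6 genes higher in place of 7. Over all genes DESeq2 called 48 higher and 10 lower, pig 14 alone gave 13 and 1, and pig 13 alone gave 30 and 0. Without single biopsies 3 to 19 were called higher and 0 to 1 lower. Between pigs DESeq2 called 1333 genes lower in pig 14 (863 in edgeR), and without single biopsies 723 to 1347 were higher and 392 to 903 lower. For the interaction DESeq2 called 24 with a positive and 62 with a negative term, a fit without the count filter 3 and 5, and fits without single biopsies 0 to 143 and 0 to 170, where edgeR called none with all biopsies.

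The sign turned for OSM in pig 13 alone (-0.016), IL6ST in pig 14 alone (-0.24) and STAT3 in pig 13 alone (-0.14). Without single biopsies the injected-to-control value ran from -0.0040 to 0.079 for IL6R, -0.027 to 0.16 for IL6ST, -0.012 to 0.14 for LIFR and -0.076 to 0.23 for STAT3. The difference between pigs ran from -0.68 to 0.12 for IL11, -0.25 to 0.22 for OSMR and -0.20 to 0.10 for STAT3. The interaction ran from -1.10 to 1.88 for IL6, -0.62 to 0.16 for LIF, -0.017 to 0.18 for IL6R, -0.013 to 0.099 for IL11RA, -0.27 to 0.13 for LIFR, -0.68 to 0.53 for OSMR and -0.065 to 0.68 for STAT3. The cause of these turns was not tested. IL11 had 2 to 24 counts per biopsy, and the parts of depth and of spread between sites in its interval were not tested.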
